A study of Mus musculus with 22 samples.

Results

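The genes described here are 38 mouse genes of ribosome biogenesis, followed in lung 24 h after instillation of the multi-walled carbon nanotube Mitsui7. They were taken from a list of names, and a gene's probes were found by matching the RefSeq accession of each probe to that list. All 38 were on the array, out of 20018 genes named in this way, and 37 of them (Lyar being the exception) were expressed above background, against 16437 of all named genes. Female C57BL/6 mice, 8 weeks old when the experiment began, were anaesthetised and received a single intratracheal instillation. Controls (5 mice) received the vehicle, saline containing lavage fluid, and the treated mice received 18 µg (6 mice), 54 µg (5 mice) or 162 µg (6 mice) of Mitsui7. RNA of the right lung, labelled with Cy5, was hybridised on dual-colour Agilent arrays together with Cy3-labelled universal mouse reference RNA, a pool from 11 mouse cell lines. Each value below is therefore a log2 ratio of lung to reference, and a log2 fold change is the difference of such ratios between treated and control mice.

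Ribosomes are built in the nucleolus, where RNA polymerase I transcribes a long precursor RNA. Small nucleolar ribonucleoproteins (snoRNPs) of the box C/D and box H/ACA classes methylate and pseudouridylate it, and helicases, GTPases and assembly factors cut it, fold it and load ribosomal proteins onto the small and the large subunit. Genes of this machinery are expressed in nearly every cell and are known as targets of the transcription factor Myc, with high levels in growing cells.

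The labelled tissue carried lung markers. In the 5 controls the mean log2 ratio to the reference was 5.01 to 5.67 over 8 type II alveolar markers, 3.46 to 3.91 over 8 ciliated cell markers and 3.38 to 4.35 over 7 endothelial markers. Ribosome biogenesis genes lay on the other side of the scale, with 34 of 37 members below 0 in every control (30.3% of all expressed genes were), and a median over members of -1.36. The arrays lay on 7 slides of 3 to 4 each. Cy5 signal stood higher over its local background on control arrays (a median of 2.00) than on those of the 18, 54 and 162 µg groups (1.44, 1.49 and 1.72). The part of this difference in the results was not tested. The arrays under 1.4 were 18 µg replicates 4, 5 and 6, 54 µg replicate 4 and 162 µg replicates 5 and 6. No control was among them. Without these 6 arrays the median log2 fold changes given next were 0.25, 0.29 and 0.39 at the 3 doses. With a normexp background correction over all arrays they were 0.27, 0.33 and 0.37. In a whole lung, more RNA per cell and more cells of a type with high levels cannot be told apart.

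Most members had higher loess-normalized ratios in treated than in control lungs at each dose, a direction that turned for the members' median at 18 µg (-0.10 and -0.26) and shrank at 162 µg (0.065 and 0.045) with median centring and without normalization. Of the 37 expressed members, 35 had a log2 fold change above 0 at 18 µg, 35 at 54 µg and 34 at 162 µg, where 46.4%, 47.4% and 48.8% of all 16437 expressed genes did. The median log2 fold change over members was 0.27, 0.35 and 0.37, against -0.02, -0.01 and -0.01 over all genes. Under median centring of the arrays the numbers above 0 were 16, 34 and 23, and with no normalization at all 5, 36 and 23. The members' median was then -0.10, 0.30 and 0.065 under median centring and -0.26, 0.49 and 0.045 with no normalization, beside all-gene medians of -0.26, -0.03 and -0.18 and of -0.42, 0.13 and -0.21. Relative to all genes the members lay 0.16, 0.34 and 0.25 higher under median centring, and 0.16, 0.36 and 0.25 higher with no normalization.

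Fewer members passed the test singly. A member is said here to have passed the test, and so to have risen or fallen, at an adjusted p of at most 0.05 in limma, with the adjustment over all 55681 probes. A gene is read on the brightest of its probes. At 18 µg 3 members rose and 0 fell, at 54 µg 1 rose and 0 fell, and at 162 µg 12 rose and 1 fell. Of all genes 0.809% rose and 1.77% fell at 18 µg, 0.249% rose and 0.152% fell at 54 µg, and 5.07% rose and 5.77% fell at 162 µg. At an unadjusted p under 0.05, 18, 19 and 25 members were higher at the 3 doses (9.12%, 5.99% and 13.5% of all genes), and 0, 0 and 1 were lower (13.2%, 7.9% and 15.4% of all genes). With a change of at least 1.5-fold required as well, 1, 1 and 9 members were left (2.07%, 0.389% and 6.87% of all genes), of which 1 at 162 µg, Pes1, was lower. The counts at the lower doses were not stable. Leaving out single mice moved the count at 18 µg between 0 and 9 and that at 54 µg between 0 and 6, and the deposited log2 table gave 0 at both. At 162 µg it stayed between 8 (without control replicate 5 or without 162 µg replicate 1) and 17, and it was 0 under median centring and with no normalization.

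**Figure D1:**
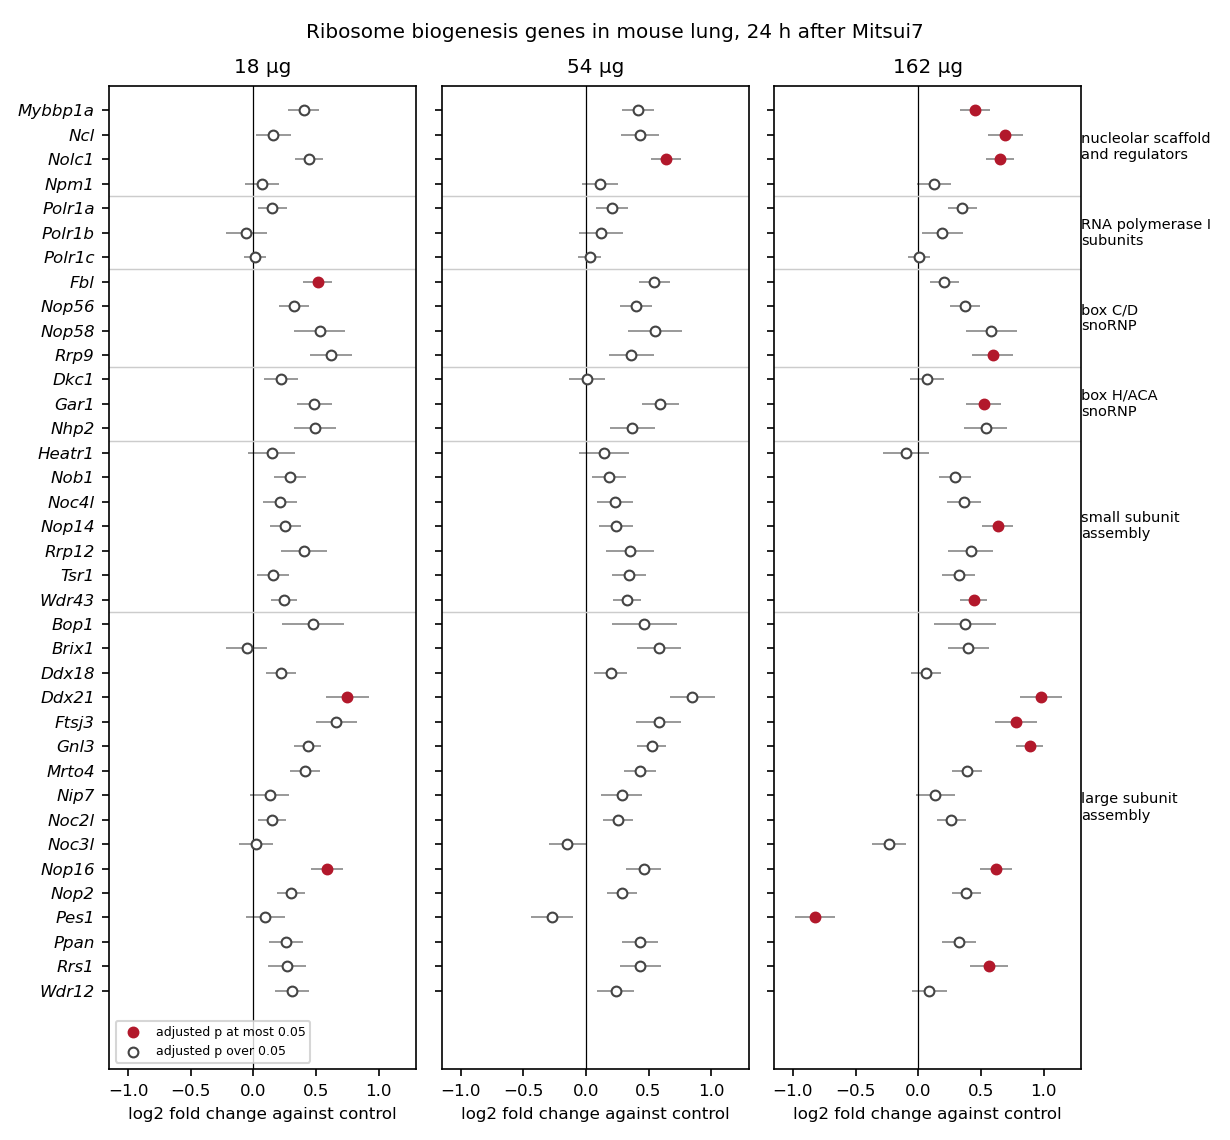
Log2 fold change against control (horizontal axis) of the 37 expressed members at 18, 54 and 162 µg, grouped by role, with bars for the standard error and filled points for an adjusted p of at most 0.05 in limma. Members lie mostly to the right of 0 at each dose, with medians of 0.27, 0.35 and 0.37 (with median centring -0.10 at 18 µg and 0.065 at 162 µg, without normalization -0.26 and 0.045), and Pes1 stands apart at 162 µg with -0.82.

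Single mice were compared on the loess-normalized ratios, and other scalings were not run mouse by mouse. The median log2 ratio over the 37 members was -1.30, -1.41, -1.34, -1.38 and -1.46 in the 5 controls. It ranged from -1.20 to -0.79 with a median of -1.02 at 18 µg and from -1.09 to -0.73 with a median of -0.94 at 162 µg. At 54 µg it was -0.97, -0.93, -1.06, -1.07 and -0.85. None of the 17 treated mice overlapped with a control, while the median over all expressed genes lay between 0.00 and 0.11 in every mouse. Of the members taken one by one, 6 at 18 µg, 13 at 54 µg and 12 at 162 µg were higher in every measured treated mouse than in every control, as were 1.42%, 1.51% and 3.72% of all genes. At 162 µg 1 member, Pes1, was lower in every mouse than in every control (4.49% of all genes).

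Slides were treated as batches, and 5 of the 7 held a control. In the 11 comparisons of a treated mouse with the control on its own slide, the median over members was higher in the treated mouse, by 0.21 to 0.53. That over all genes differed by -0.07 to 0.02. These 11 comparisons rest on 5 controls, each used more than once, and are not independent. The smallest difference, 0.21, was that of the 18 µg mouse on slide 1, where 26 of 37 members were higher. The largest, 0.53, was that of the 162 µg mouse on slide 2, where 33 were.

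**Figure D2:**
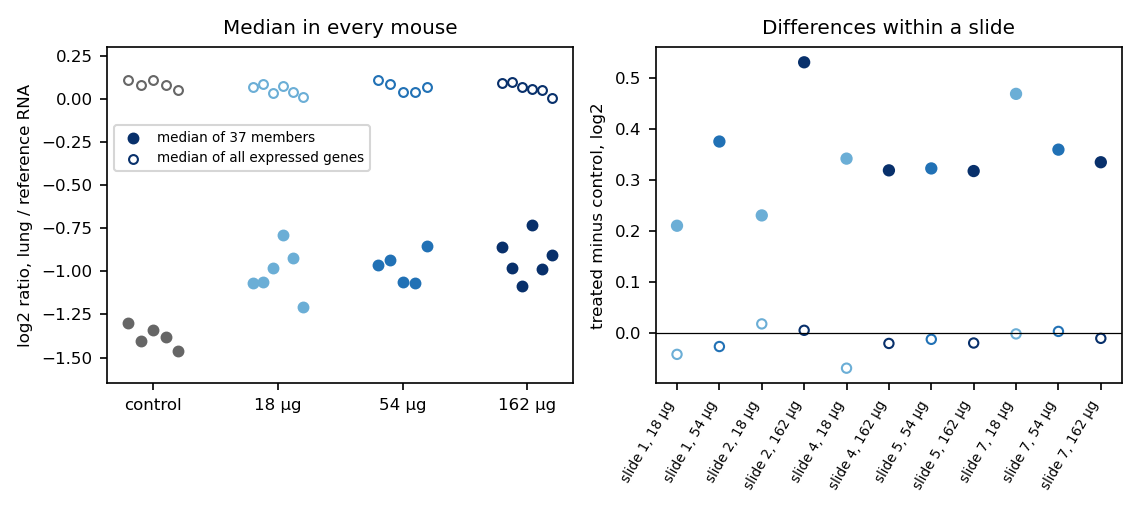
Left, the median log2 ratio of lung to reference in each mouse (1 point a mouse) over the 37 members (filled) and over all expressed genes (open), by dose. Right, the same medians as the difference between a treated mouse and the control on its slide. The members' medians are -1.46 to -1.30 in controls and -1.20 to -0.73 in treated mice. All 11 differences, which share 5 controls, are above 0.

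Myc is known to bind the canonical E-box, and this motif is shown here because Myc itself was measured on the same arrays. The RefSeq windows from 250 bases before to 50 bases after each gene start (assembly GRCm38.p6) were searched for its letters, CACGTG, which read the same on both strands. Windows were matched for 33 of the 38 members. A gene was counted where any of its windows held the motif, and there were 32851 windows for 27025 genes. This was so for 5 of the 33 members (15.2%), Pes1, Wdr43, Mybbp1a, Nop2 and Tsr1, and for 8.09% of the 27025 genes. The other gene lists described further on were counted in the same way, over their genes with a window. The motif was found for 19 of 84 other ribosome biogenesis factors (22.6%), 6 of 58 ribosomal protein genes (10.3%) and 7 of 22 translation factors (31.8%). It was found for 4 of 10 genes of the Myc network (40%) and 1 of 9 of the other RNA polymerase I machinery (11.1%). The 30 bases around the motif (capitals) are given for the 3 of the 5 members with the motif that had the smallest p at 162 µg, all on the plus strand. They lie at chr11:3963965-3963994 (Pes1, motif at bases 3 to 8 counted from the gene start), chr17:71616220-71616249 (Wdr43, bases 18 to 23) and chr11:72441347-72441376 (Mybbp1a, bases 41 to 46).
Pes1: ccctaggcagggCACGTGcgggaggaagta
Wdr43: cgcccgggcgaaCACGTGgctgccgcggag
Mybbp1a: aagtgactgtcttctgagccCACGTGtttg
At 162 µg Wdr43 and Mybbp1a rose, while Pes1 had -0.82 on its brightest probe and 0.48 on its other probe. A match describes letters in a window and says nothing of binding.

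Among the nucleolar scaffold proteins and regulators, nucleolin (Ncl), Nolc1 and Mybbp1a rose at 162 µg and nucleophosmin (Npm1) did not pass the test at any dose. Ncl, an abundant RNA-binding protein of the nucleolus that acts in transcription and processing of the precursor RNA, had log2 ratios of -1.61, -1.77, -1.93, -1.99 and -2.20 in controls and -1.61, -1.19, -1.31, -1.38 and -1.39 at 54 µg. It ranged from -1.90 to -1.20 with a median of -1.70 at 18 µg, and from -1.55 to -0.59 with a median of -1.14 at 162 µg. All mice at 54 µg and 162 µg were above all controls, the lowest at 54 µg only just, and 4 of 6 at 18 µg overlapped with them. The log2 fold change of Ncl was 0.16 (standard error 0.14, adjusted p = 0.659), 0.43 (0.15, adjusted p = 0.346) and 0.69 (0.14, adjusted p = 0.00687) at the 3 doses in limma.

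Nolc1, a chaperone that shuttles snoRNPs between nucleolus and Cajal bodies, was the 1 member past the test at 54 µg. Its log2 ratio was -2.07, -2.36, -2.14, -2.31 and -2.16 in controls and -1.45, -1.71, -1.79, -1.59 and -1.31 at 54 µg, ranged from -2.08 to -1.61 (median -1.76) at 18 µg, and from -1.84 to -1.42 (median -1.60) at 162 µg. Only 1 of the 17 treated mice, at 18 µg, fell within the controls. For Nolc1 limma gave log2 fold changes of 0.44 (standard error 0.11, adjusted p = 0.0599), 0.64 (0.12, adjusted p = 0.0367) and 0.65 (0.11, adjusted p = 0.00256). The call at 54 µg was lost in 16 of the 22 fits that each left out a mouse and under 7 of 14 other settings of the processing. Here and below, these 14 include Aquantile scaling between arrays, no expression filter and the scanner software's flag as filter. Those settings cannot change the call of a single gene. The call at 162 µg held in all 22 fits and was lost under 3 of the 14 settings. Mybbp1a, a Myb-binding protein of the nucleolus whose E-box is shown above, rose at 162 µg (0.45, standard error 0.12, adjusted p = 0.0348), although its controls ranged from -1.93 to -1.0 and only 2 of 6 mice exceeded them all. Npm1, an abundant histone and ribosome chaperone, had log2 fold changes of 0.07, 0.11 and 0.12 (adjusted p = 0.876, 0.915 and 0.735). Lyar was above background on no array.

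The 3 RNA polymerase I subunits did not pass the test at any dose. Polr1a, the largest subunit, had log2 fold changes of 0.15, 0.21 and 0.35 (adjusted p at 162 µg 0.0968), and all controls were exceeded by 5 of 5 mice at 54 µg and by 5 of 6 mice of the top dose. Polr1b had -0.06, 0.12 and 0.19, and Polr1c, which is shared with RNA polymerase III, 0.01, 0.03 and 0.01, with a standard error of 0.09 at each dose.

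The 4 box C/D snoRNP proteins had log2 fold changes of 0.21 to 0.62 over the 3 doses, and Fbl at 18 µg and Rrp9 at 162 µg passed the test. Fibrillarin (Fbl), the methyltransferase of the complex, had log2 ratios of -2.02, -1.85, -1.98, -2.12 and -2.13 in controls. Spots marked as outliers left it with 5 of 6 mice at 18 µg (-1.63 to -1.22), 4 of 5 at 54 µg (-1.26, -1.64, -1.32 and -1.18) and 5 of 6 at 162 µg (-2.30 to -1.48). All measured mice at 18 µg and 54 µg were above the controls, and at 162 µg 4 of 5 were and 1 was below them all. The log2 fold change of Fbl was 0.51 (standard error 0.12, adjusted p = 0.0428), 0.54 (0.12, adjusted p = 0.107) and 0.21 (0.12, adjusted p = 0.394), and between 162 µg and 18 µg it differed by -0.31 (standard error 0.11, adjusted p = 0.153). The call of Fbl at 18 µg was lost in 13 of the 22 fits that each left out a mouse (adjusted p of up to 0.144). It was also lost, with the sign kept, under 6 of 14 other settings. Without normalization the change of Fbl at 18 µg was -0.08. Rrp9, which binds the U3 snoRNA, rose at 162 µg (0.59, standard error 0.17, adjusted p = 0.0432) and had 0.62 at 18 µg (adjusted p = 0.0701). The scaffold proteins Nop56 and Nop58 had 0.37 and 0.58 at 162 µg (adjusted p = 0.0787 and 0.105), with all 6 mice above all controls for each.

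Of the 3 box H/ACA proteins, Gar1 rose at 162 µg. Its log2 ratio was -1.32, -1.58, -1.23, -1.85 and -1.67 in controls and -0.52, -0.97, -1.24, -0.90 and -0.72 at 54 µg, and ranged from -1.44 to -0.69 (median -1.02) at 18 µg and from -1.38 to -0.84 (median -0.98) at 162 µg. The highest control overlapped with 2 of 6, 1 of 5 and 1 of 6 treated mice. The differences of Gar1 from controls came to 0.49 (standard error 0.14, adjusted p = 0.0860), 0.59 (0.15, adjusted p = 0.134) and 0.52 (0.14, adjusted p = 0.0324). The call was lost in 7 of the 22 fits that each left out a mouse (control replicates 1, 2, 4 and 5 and 162 µg replicates 1, 3 and 5), with an adjusted p of up to 0.107. It was also lost under 7 of 14 other settings. Nhp2, an RNA-binding core protein, had a change of the same size at 162 µg (0.54, adjusted p = 0.0753), and dyskerin (Dkc1), the pseudouridine synthase itself, had 0.22, 0.01 and 0.07 (adjusted p of at least 0.491).

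**Figure D3:**
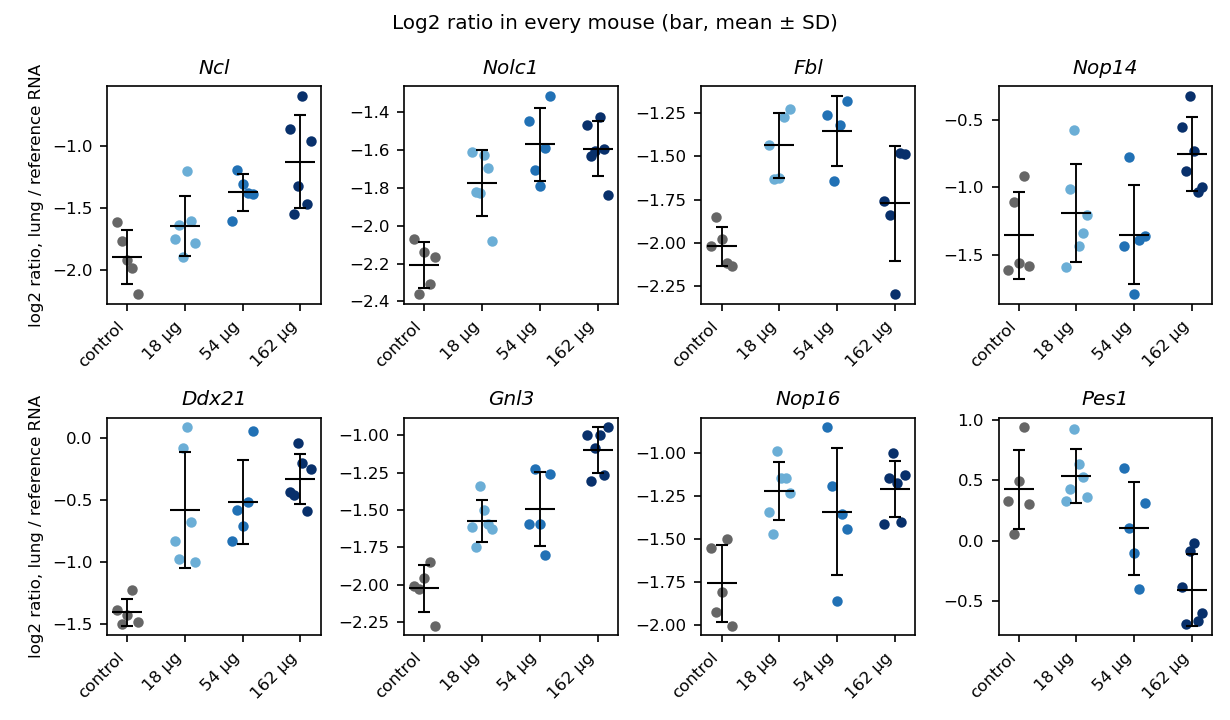
Log2 ratio of lung to reference RNA in every mouse by dose for 8 members (1 point a mouse, bars for the mean ± SD over mice; the vertical axes differ). Gnl3, Ddx21 and Nolc1 at 54 µg and 162 µg lie above all controls, Fbl at 162 µg spreads from -2.30 to -1.48, and Pes1 at 162 µg lies below all controls.

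Among the 7 small subunit factors, Nop14 and Wdr43 rose at 162 µg. Nop14, a component of the small subunit processome, had log2 ratios of -1.61, -1.11, -1.56, -0.92 and -1.58 in controls and -1.43, -0.77, -1.79, -1.39 and -1.36 at 54 µg. It ranged from -1.59 to -0.57 (median -1.27) at 18 µg and from -1.03 to -0.33 (median -0.81) at 162 µg. At 18 µg all mice but 1, which was higher, lay within the controls. At 54 µg 1 mouse was above all controls and 1 below them all, and at 162 µg 4 of 6 mice were above them. Its log2 fold change was 0.25, 0.24 and 0.63 (standard error at 162 µg 0.12, adjusted p = 0.348, 0.678 and 0.00596). The call of Nop14 at 162 µg held in all 22 fits that each left out a mouse and was lost under 6 of 14 other settings. Wdr43, another processome protein, had 0.24, 0.32 and 0.44 (standard error at 162 µg 0.10, adjusted p = 0.272, 0.338 and 0.0178). The call was lost without control replicate 3, 4 or 5 or 162 µg replicate 1 (adjusted p of up to 0.0634), and under 4 of 14 other settings. Wdr43 lay between -1.91 and -1.24 in controls and between -1.40 and -0.96 at 162 µg, where 5 of 6 mice were above all controls. Noc4l, a processome partner of Nop14, Rrp12, an export factor, Nob1, the endonuclease of the last cut of the 18S RNA, and Tsr1, a GTPase-like factor of the late small subunit, had 0.29 to 0.42 at 162 µg and did not pass (adjusted p = 0.134 to 0.237). Heatr1, a transcription and processing factor, had 0.15, 0.15 and -0.10 (adjusted p of at least 0.782).

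The 16 large subunit factors held the largest changes, of both signs. Gnl3 (nucleostemin), a GTPase of the nucleolus known from stem and tumour cells, had log2 ratios of -2.01, -2.03, -1.96, -1.85 and -2.27 in controls and -1.59, -1.22, -1.59, -1.80 and -1.26 at 54 µg. It ranged from -1.75 to -1.34 (median -1.61) at 18 µg and from -1.31 to -0.95 (median -1.04) at 162 µg. No treated mouse overlapped with a control. Set against controls, Gnl3 had log2 fold changes of 0.43 (standard error 0.11, adjusted p = 0.0538), 0.52 (0.11, adjusted p = 0.0785) and 0.89 (0.11, adjusted p = 0.000241), the smallest p of any member, and it passed at 162 µg without any single mouse. Without normalization the change of Gnl3 at 18 µg was -0.10.

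Ddx21, an RNA helicase that couples RNA polymerase I and II transcription with processing, had the largest change of the members at each dose. Its log2 ratio was -1.38, -1.49, -1.42, -1.23 and -1.48 in controls and -0.83, -0.58, -0.71, -0.51 and 0.05 at 54 µg, and ranged from -0.99 to 0.08 (median -0.75) at 18 µg and from -0.59 to -0.04 (median -0.35) at 162 µg. Every treated mouse was above every control. Against controls the log2 fold changes were 0.75 (standard error 0.17, adjusted p = 0.0393), 0.85 (0.18, adjusted p = 0.0723) and 0.98 (0.17, adjusted p = 0.00269). The call of Ddx21 at 18 µg was lost in 15 of the 22 fits that each left out a mouse and under 6 of 14 other settings. That at 162 µg was lost under 2 settings. Nop16, a pre-60S protein known as a Myc target, lay between -2.01 and -1.50 in controls, between -1.47 and -0.98 at 18 µg, between -1.86 and -0.85 at 54 µg and between -1.41 and -1.0 at 162 µg. It overlapped with controls in 1 mouse at 54 µg. Log2 fold changes of Nop16 were 0.58 (standard error 0.13, adjusted p = 0.0346), 0.46 (0.14, adjusted p = 0.240) and 0.62 (0.13, adjusted p = 0.00828). The call of Nop16 at 18 µg was lost in 8 of the 22 fits that each left out a mouse (adjusted p of up to 0.115) and under 8 of 14 other settings, and that at 162 µg held in all 22 fits and was lost under 4 settings.

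Ftsj3, a methyltransferase of the precursor RNA, had log2 ratios between -2.08 and -0.96 in controls and between -0.93 and -0.43 at 162 µg, with 1 of 6 mice unmeasured and the other 5 above the controls. Its log2 fold change was 0.66, 0.58 and 0.78 (standard errors 0.16, 0.18 and 0.17, adjusted p = 0.0571, 0.261 and 0.0117). Rrs1, which brings the 5S ribonucleoprotein into the large subunit, rose by 0.56 at 162 µg (standard error 0.15, adjusted p = 0.0359), with all 6 mice above all controls. Mrto4, a placeholder for the stalk protein P0, had 0.41, 0.43 and 0.39 (adjusted p = 0.0893, 0.226 and 0.0651) and was above all controls in 17 of 17 treated mice without passing the test. The RNA methyltransferase Nop2, the related Brix-domain proteins Ppan and Brix1, and Noc2l, a partner of Noc3l in early pre-60S particles, had 0.26 to 0.40 at 162 µg. The helicase Ddx18 and the processing factor Nip7 had 0.06 and 0.14. None of these 6 passed, with adjusted p of 0.0565 or more.

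Pes1, which forms the PeBoW complex with Bop1 and Wdr12, was the 1 member that fell on its brightest probe. On this probe the log2 ratio was 0.33, 0.05, 0.50, 0.94 and 0.30 in controls and 0.60, 0.10, -0.10, -0.40 and 0.31 at 54 µg. It ranged from 0.33 to 0.93 (median 0.48) at 18 µg and from -0.69 to -0.02 (median -0.49) at 162 µg. All 6 mice at 162 µg were below all controls, and at the lower doses the groups overlapped. The log2 fold change was 0.09, -0.27 and -0.82 (standard error at 162 µg 0.16, adjusted p = 0.845, 0.738 and 0.00504). Its partners Bop1 and Wdr12 had 0.37 and 0.09 at 162 µg (adjusted p = 0.489 and 0.842). The other Pes1 probe, of the same RefSeq accession, moved the opposite way. It had log2 ratios of -1.17 to -0.76 in controls and -0.84 to 0.09 at 162 µg, and a log2 fold change there of 0.48 (standard error 0.12, adjusted p = 0.0274). With the mean over both probes Pes1 had -0.17 (adjusted p = 0.402), so the direction for this gene is not settled by these arrays.

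Probes of the same gene often differed in the size of the change. Of 11 members with several probes, 7 had a probe past the test at 162 µg, and in none of these 7 did all of their probes pass in the same direction. The dimmer probe of Brix1 fell (-0.89, standard error 0.17, adjusted p = 0.00563) and ranged from -1.85 to -0.86 at 162 µg against -0.55 to -0.15 in controls, while the brighter had 0.40 (adjusted p = 0.196). For Nop56 the dimmer probe rose (0.72, standard error 0.15, adjusted p = 0.00985) and the brighter did not pass. The dimmer probes of Ddx21, Ncl and Nolc1 had 0.27, 0.15 and 0.12 and did not pass (adjusted p = 0.312, 0.550 and 0.562), against 0.98, 0.69 and 0.65 on the brighter. The probes of Tsr1 gave 0.32 and 0.35, and the 4 probes of Npm1 lay between -0.03 and 0.12. Which transcripts or other sequences each probe takes up was not tested.

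**Figure D4:**
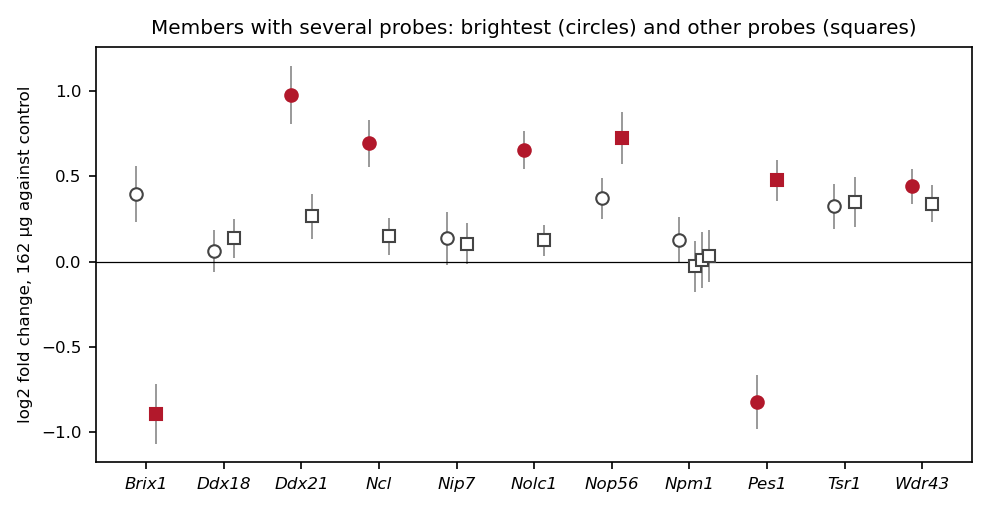
Log2 fold change at 162 µg against control for every expressed probe of the 11 members with several probes (circles, brightest probe; squares, other probes; bars, standard error; filled, adjusted p of at most 0.05 in limma). Pes1 and Brix1 have probes on both sides of 0, at -0.82 and 0.48 and at 0.40 and -0.89.

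The doses were also set against each other. Between 162 µg and 18 µg, 2 members were higher and 1 was lower, where 5.2% of all genes were higher and 3.04% lower. Gnl3 differed by 0.46 (standard error 0.10, adjusted p = 0.0144), Ncl by 0.53 (0.13, adjusted p = 0.0267) and Pes1 by -0.92 (0.15, adjusted p = 0.00191). The median difference over members was 0.05. For 162 µg against 54 µg, 0 members passed the test in limma (0% of all genes), and for 54 µg against 18 µg again 0 (0.0304%). At an unadjusted p under 0.05, 2 members were higher and 2 lower in the first of these (6.64% and 5.79% of all genes) and 1 higher and 1 lower in the second (8.27% and 6.78%). In 25 of 37 members the change was larger at 162 µg than at 18 µg (51.3% of all genes), and in 13 it was larger at each step of dose (24% of all genes). The 3 comparisons with control share the same 5 mice, so that an unusual control moves all of them.

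Pes1, Heatr1 and Noc3l were, each on its brightest probe, the 3 members with a ratio above 0 in every control (means of 0.42, 0.27 and 1.12). They were also the 3 with a negative log2 fold change at 162 µg. Heatr1 had -0.10 (standard error 0.18, adjusted p = 0.875) and Noc3l -0.24 (0.14, adjusted p = 0.409), and neither passed the test in limma. Noc3l had values of 0.80 to 1.34 in controls and 0.85 to 1.08 at 162 µg. The control values enter both properties, which are therefore not independent, and their relation was not tested. The other Pes1 probe had neither property, with ratios of -1.17 to -0.76 in controls and a log2 fold change of 0.48. Markers of proliferating cells, which lay further below the reference than the members, were read beside the members. Controls had a mean log2 ratio over 9 expressed markers of -3.91 to -3.48. The 18 µg group had -3.55 to -2.53, the 54 µg group -3.96 to -3.44 and the 162 µg group -4.01 to -2.69. The median log2 fold change over these markers was 0.72, -0.05 and 0.14, with 2, 0 and 0 past the test (both higher). Of all genes 0.809% rose at 18 µg. At an unadjusted p under 0.05, 9, 0 and 0 markers were higher (9.12%, 5.99% and 13.5% of all genes). By the same measure 0, 1 and 1 were lower (13.2%, 7.9% and 15.4% of all genes). The members' medians at these doses were 0.27, 0.35 and 0.37. The marker values come from the loess-normalized ratios alone, as other scalings were not run for them. With median centring and without normalization the members' median at 18 µg was -0.10 and -0.26. The part of proliferating cells in the members' values was not tested at any dose.

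Other genes of the pathway were read in the same fit. Of 99 other expressed ribosome biogenesis factors, 3 rose at 18 µg, 0 at 54 µg and 12 at 162 µg, and none fell, with medians of 0.13, 0.16 and 0.18. Of all genes 0.809%, 0.249% and 5.07% rose. At 54 µg 18 of these factors were higher and 2 lower at an unadjusted p under 0.05 (5.99% and 7.9% of all genes). Other scalings were not run for the gene lists here and below, nor for the cell markers. Their counts and directions at each dose, 18 µg and 162 µg included, hold for the loess-normalized ratios alone. The members' own count past the test at 162 µg was 0 with median centring and without normalization. The smallest p were those of Wdr74 (0.68, standard error 0.10, adjusted p = 0.000957), Ddx49 (0.71, 0.11, adjusted p = 0.00116) and Wdr46 (0.51, 0.08, adjusted p = 0.00124) at 162 µg. Of 8 further genes of the RNA polymerase I machinery, Taf1d, a subunit of the promoter selectivity factor, rose at 162 µg (0.46, standard error 0.12, adjusted p = 0.0310) and the others did not pass. The next smallest p were those of the subunit Polr1e at 162 µg (0.38, standard error 0.12, adjusted p = 0.0719) and of Taf1a, another part of the selectivity factor, at 18 µg (-0.28, 0.10, adjusted p = 0.177).

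Ribosomal proteins are the parts that this machinery assembles. Of 78 cytosolic ribosomal protein genes, 1 rose at 162 µg (Rps19, 0.48, standard error 0.13, adjusted p = 0.0384), where 5.07% of all genes rose. At 18 µg and 54 µg 0 passed. At an unadjusted p under 0.05, 3 were higher and 6 lower at 18 µg (9.12% and 13.2% of all genes). At 54 µg 1 was higher and 5 were lower (5.99% and 7.9% of all genes). The medians over the 78 genes were -0.03, -0.08 and -0.01. Rps2 at 18 µg (0.48, standard error 0.12, adjusted p = 0.0521) and Rpl31 at 54 µg (-0.37, 0.10, adjusted p = 0.205) came next. Ribosomal protein genes have many processed pseudogenes of near-identical sequence, and cross-hybridisation was not tested. Of 28 translation initiation and elongation factors, 5 rose and 0 fell at 162 µg (5.07% and 5.77% of all genes). Their medians were 0.13, 0.17 and 0.20 at the 3 doses. Eif4a1, the helicase of the cap-binding complex, had 0.78 (standard error 0.13, adjusted p = 0.00210), Eif5a, which keeps ribosomes moving through difficult peptides, 0.70 (0.17, adjusted p = 0.0183) and Eif3b, a scaffold of initiation, 0.70 (0.14, adjusted p = 0.00789).

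**Figure D5:**
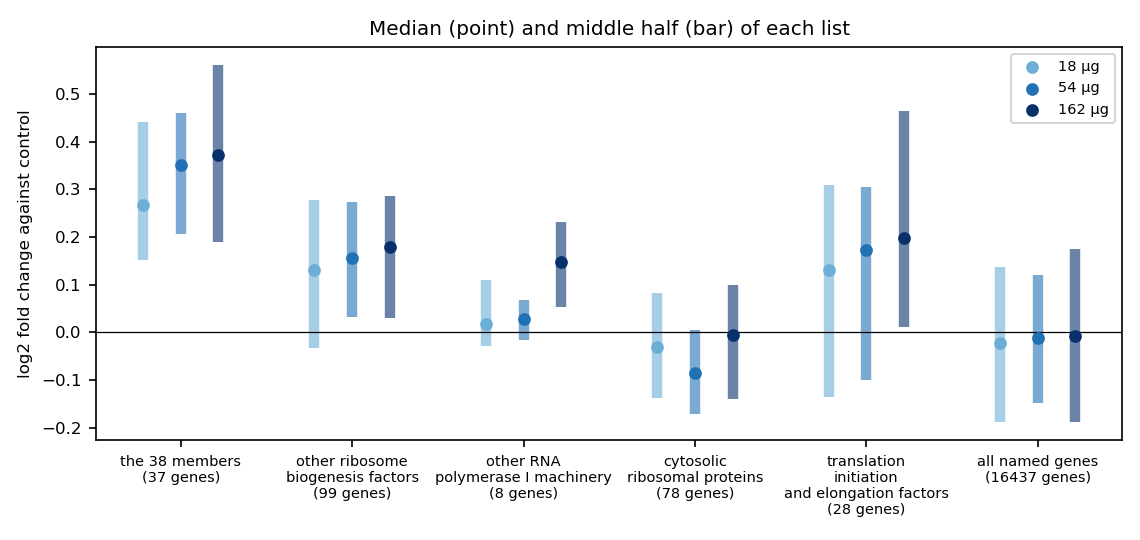
Median (point) and interquartile range (bar) of the log2 fold changes against control over the expressed genes of each list at 18, 54 and 162 µg. The members' medians are 0.27, 0.35 and 0.37 (with median centring -0.10 at 18 µg and 0.065 at 162 µg, without normalization -0.26 and 0.045), those of ribosomal protein genes -0.03, -0.08 and -0.01.

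Myc itself rose at 162 µg. Controls had log2 ratios of -3.83 to -3.22, the 18 µg group -3.67 to -2.23, the 54 µg group -2.90 to -1.89 and the 162 µg group -3.25 to -1.93, so that the mice at 54 µg were above all controls and the other groups overlapped with them. The log2 fold change of Myc was 0.48, 0.67 and 0.98 (standard errors 0.17, 0.18 and 0.17, adjusted p = 0.174, 0.186 and 0.00310). Of the 10 expressed genes of the Myc network, the relative Mycl fell at 162 µg (-0.60, standard error 0.17, adjusted p = 0.0458) and had -0.75 at 54 µg (0.18, adjusted p = 0.129). Mycn, a further relative, had -0.57 at 162 µg (0.20, adjusted p = 0.124).

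Markers of other cells were read as well. At 162 µg 3 of 8 ciliated cell, 3 of 6 B cell, 2 of 7 T cell and 1 of 5 club cell markers fell (5.77% of all genes). At this dose 1 of 11 neutrophil, 1 of 9 macrophage, 1 of 5 type I and 1 of 8 type II alveolar markers rose (5.07% of all genes). At an unadjusted p under 0.05, 3 neutrophil markers were higher and 0 lower, and 2 macrophage markers were higher and 2 lower. At 54 µg none of these passed the test in limma. At an unadjusted p under 0.05 the lower ones were 3 T cell, 2 ciliated cell, 2 B cell and 1 club cell markers (7.9% of all genes). The higher ones were 1 each of neutrophils, macrophages, eosinophils and type I cells (5.99% of all genes). At 18 µg, beside the proliferation markers given above, 1 neutrophil, 1 macrophage and 1 endothelial marker rose and none fell. Of all genes 0.809% rose and 1.77% fell there. The 11 neutrophil markers had a median of -0.03, with 5 above 0. At an unadjusted p under 0.05, 1 of them was higher and 2 were lower. All 8 ciliated and all 5 club cell markers had negative log2 fold changes at 18 µg (medians of -0.92 and -0.97). Of these, 5 and 4 were lower at an unadjusted p under 0.05 (13.2% of all genes). The mean log2 ratio of neutrophil markers was 1.69 to 4.00 in controls and 2.09 to 4.27 at 162 µg, that of macrophage markers 3.20 to 3.75 and 3.26 to 4.17, and that of B cell markers 0.95 to 1.54 and -0.13 to 0.76. Ciliated cell markers lay between 3.46 and 3.91 in controls, between 1.94 and 3.99 in the 18 µg group and between 1.62 and 3.48 in the 162 µg group, and club cell markers between 5.32 and 7.67, 3.73 and 7.84, and 5.18 and 7.31. The part of these changes in the members' values was not tested.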

How the data were processed

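The deposited scanner files hold intensity values per spot, which the authors made with Agilent Feature Extraction (version 10.7.3.1 per the file headers), and the deposited value matrix holds log2 ratios normalized by the authors. Here the ratio of the median Cy5 to the median Cy3 intensity, without background subtraction, was normalized within each array by loess (span 0.3), and replicate spots were combined by their median. Dose and slide were fitted with limma 3.58.1 in R 4.3.3 (with the data.table package, version 1.17.8) over 22 arrays (12 residual degrees of freedom), with Benjamini-Hochberg adjustment over 55681 probes. A probe was expressed where its Cy5 signal exceeded the trimmed mean (5%) plus 3 trimmed SD of the array's 308 negative controls in 80% or more of a group's arrays. RefSeq accessions named 26413 probes (20018 genes), and the brightest probe stood for its gene. Precision is limited by the number of arrays, and p-values measure the spread between single mice. The script was tested on simulated data. The members and gene lists were chosen with earlier results of these data known. Full statistics were given to the members past the test at a dose (at most the 10 with the smallest p) or the 5 with the smallest p where fewer than 5 passed, and from each pathway list to the 3 genes with the smallest p over the doses and to Myc. Alternatives changed the background correction, normalization, channel, authors' log2 values, slide term, samples, filter and probe rule, and 1 more, leaving out dim arrays, was chosen after seeing the data. The motif and the lists carry no test.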

Additional observations from a re-analysis of the deposited data

Results flagged for a closer look

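Of 48 groups of 4 to 6 mice examined over the members described in full, 1 held a mouse far from the others of its group. For Ftsj3, 54 µg replicate 3 had a log2 ratio of -1.77, where the other mice at this dose lay between -1.04 and -0.83. Chance alone marks about 1 in 20 groups. Without this mouse 6 members passed the test at 54 µg, against 1 with it.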

How the results depend on the processing

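The number of members past the test at 18, 54 and 162 µg and between 162 µg and 18 µg (3, 1, 13 and 3) was 0, 0, 0 and 0 with median centring and without normalization. It was 0, 0, 6 and 1 with the Cy5 channel alone, 0, 0, 9 and 2 in the deposited log2 table, 1, 1, 12 and 2 without a slide term, and 7, 3, 16 and 3 with slide as a random block. With only the 2 groups compared it was 0, 2, 11 and 3, with the mean over all probes 3, 0, 13 and 3, and without the 6 arrays under 1.4 times background, chosen after seeing the data, 0, 0, 8 and 0. The number also changed by 1.5-fold at 18, 54 and 162 µg (1, 1 and 9) was 0, 0 and 0 with median centring and without normalization, 0 and 0 at 18 and 54 µg with the Cy5 channel, the deposited table, the mean over probes and without dim arrays, 2 and 2 with the random block, and 0 and 2 with only the groups compared. Normexp, no expression filter and the scanner software's flag kept each of these counts within 1.5 times. Aquantile scaling between arrays leaves the log2 ratios as they are, so its counts could not differ from the main ones. For 162 µg against 54 µg, and for 54 µg against 18 µg, the count was 0 under every alternative.

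The median over members at 18 µg turned to -0.10 with median centring and to -0.26 without normalization. That at 54 µg was 0.49 without normalization, and that at 162 µg was 0.065 and 0.045 under these same settings. The medians of all genes moved too, by over 0.1, to -0.26 and -0.42 at 18 µg and -0.18 and -0.21 at 162 µg, and to 0.13 at 54 µg without normalization. Relative to all genes the members lay higher by 0.16 to 0.37 at 18 µg, by 0.31 to 0.41 at 54 µg, and at 162 µg by 0.25 to 0.47, under every alternative where this was computed. Without normalization Fbl and Gnl3 at 18 µg had -0.079 and -0.10. The cause was not tested.

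Nothing in the labels says that a replicate number marks a shared animal, litter or day. Deviations of 31 same-numbered pairs of mice correlated at -0.25 to 0.63, with a median of 0.21 against -0.07 for other pairs. Of the 31, 18 were over 0.1 and 11 shared a slide. Since not every pair exceeded 0.1, mice were not treated as paired. With a replicate block in place of slide, 7, 3 and 15 members passed at the 3 doses, 4 and 3 were also changed by 1.5-fold at 18 and 54 µg, and the medians were 0.33, 0.40 and 0.42.

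Leaving out each mouse in turn gave 0 to 9 members past the test at 18 µg, 0 to 6 at 54 µg, from 8 to 17 at 162 µg, and from 1 to 4 between 162 µg and 18 µg. The count at 18 µg was 0 without control replicate 1 or 5, 18 µg replicate 3, 4 or 5 or 54 µg replicate 2, and 9 without 54 µg replicate 5. The count at 54 µg was 6 without 54 µg replicate 3. At 162 µg it was 8 without control replicate 5 or 162 µg replicate 1. Between 162 µg and 18 µg it was 1 without 18 µg replicate 2 or 162 µg replicate 1. With 1.5-fold required the ranges were 0 to 4, 0 to 4 and 7 to 11, and the medians ranged from 0.25 to 0.31, 0.27 to 0.40 and 0.31 to 0.40. Signal over background was low on these arrays, as given for each group above, and small ratios of dim probes have only this precision.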
